A study of Mus musculus with 6 samples.

Results

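The CDK inhibitor genes are a family whose products hold cyclin-dependent kinases (CDKs) in check. The family was taken by gene symbol from a table of transcript levels in newborn mouse lenses, as Cdkn1a, Cdkn1b, Cdkn1c, Cdkn2a, Cdkn2b, Cdkn2c and Cdkn2d. Of these 7 genes, 6 were matched among the 13931 genes of the table, and Cdkn2a was not analysed here. RNA-sequencing had been run on whole lenses at postnatal day 0 from 3 control and 3 Celf1cKO pools, with 2 lenses in each pool, so that epithelial and fiber cells were measured together. Celf1cKO mice carried a germline null allele (Celf1lacZKI), a Celf1flox allele with loxP sites around exon 5, and Pax6GFPCre, a transgene that makes Cre in the lens and pancreas lineages. The labels give the genotype of the controls as Celf1lacZKI/+, whereas the methods of the study name Celf1flox mice without Cre as the usual controls, and the difference was not settled here. If the labels hold, controls and Celf1cKO lenses shared the germline null allele, and the control level of Celf1 is that of a heterozygote. Neither description gives the controls Pax6GFPCre, so the transgene and the reduction of Celf1 cannot be told apart in this comparison. The study reports that mice heterozygous for the transgene had shown no lens defects in the past. The mice were of mixed C57BL/6 and FVB background.

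CDK inhibitors fall into a pair of classes. The Cip/Kip class, p21 (Cdkn1a), p27Kip1 (Cdkn1b) and p57Kip2 (Cdkn1c), binds CDK complexes with cyclins D, E and A. The INK4 class, p16INK4a (from Cdkn2a, which also encodes p19ARF), p15INK4b (Cdkn2b), p18INK4c (Cdkn2c) and p19INK4d (Cdkn2d), binds CDK4 and CDK6 and keeps them from D-type cyclins. In the lens, epithelial cells near the equator leave the cell cycle as they become fiber cells, and p57Kip2 and p27Kip1 are known to act in that exit. The comparison asks which of these transcripts differed in Celf1cKO lenses, in which the mRNA of Celf1, an RNA-binding protein, was reduced.

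Reads counted on genes numbered 40694454 to 44387151 per library. The deposited values are log2 CPM (CPM being the count of reads on a gene scaled to the size of its library) for each library, and 3 reads, taken as the lowest level the depth can show, correspond to 0.0609 to 0.0807 CPM. Celf1 itself stood at 9.95, 9.94 and 9.34 log2 CPM in the controls and at 8.93, 7.66 and 7.83 in the Celf1cKO libraries. Its log2 fold-change was -1.60 (SE 0.335, limma adjusted p = 0.0269), and Celf1cKO library 1 kept the highest level of its group. When single libraries were left out, the adjusted p-value from limma was 0.05 or more in 5 of 6 fits and reached 0.108, and only the fit without Celf1cKO library 1 kept the call. Groups were compared with limma, a linear model fitted across all genes, with the Benjamini-Hochberg correction of p over the whole table. Calls needed an adjusted p under 0.05, a rise or fall of more than 0.58 on the log2 scale and an average log2 CPM above 1. SE is the standard error of the log2 fold-change, 95% intervals are not adjusted for the number of genes, and values of single libraries are given in the order 1, 2 and 3. Among the 10640 genes with such an average, 9.68% were called, 6.24% as elevated and 3.44% as reduced in Celf1cKO lenses, and in 40.0% the 3 control and 3 Celf1cKO values did not overlap. A fit that also took the replicate number as a block called 12.0%. The median log2 fold-change of the 10640 genes was 0.00. The 11 fiber cell markers in the table summed to 291597 to 333152 CPM in controls and to 231963 to 246642 CPM in Celf1cKO lenses, and 5 of them were called as reduced and 0 as elevated (0 of either without control library 2 or without Celf1cKO library 3). Their part in the results on CDK inhibitors was not tested. Of blood cells, 0 of the 5 erythroid and macrophage markers in the table had an average above the cut-off. The listed globin genes Hba-a1 and Hbb-bs and the leukocyte gene Ptprc were not matched in the table and could not be examined.

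Of the 5 CDK inhibitor genes with an average log2 CPM above 1, Cdkn1a and Cdkn2d were called, both as elevated, and none as reduced. Cdkn1a, of the Cip/Kip class, rose by far more than Cdkn2d, of the INK4 class. Cdkn1b, Cdkn1c and Cdkn2c were not called, and Cdkn2b lay below the expression cut-off. The share of 2 in 5 stands beside the 9.68% called over the table, and with so few genes it is a count and not a test of the family. Fits without control library 2 or without Celf1cKO library 3 called 0 members and 1 gene of the whole table. When Celf1cKO library 1 was left out, 3 members were called, with Cdkn2c as the third.

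**Figure D1:**
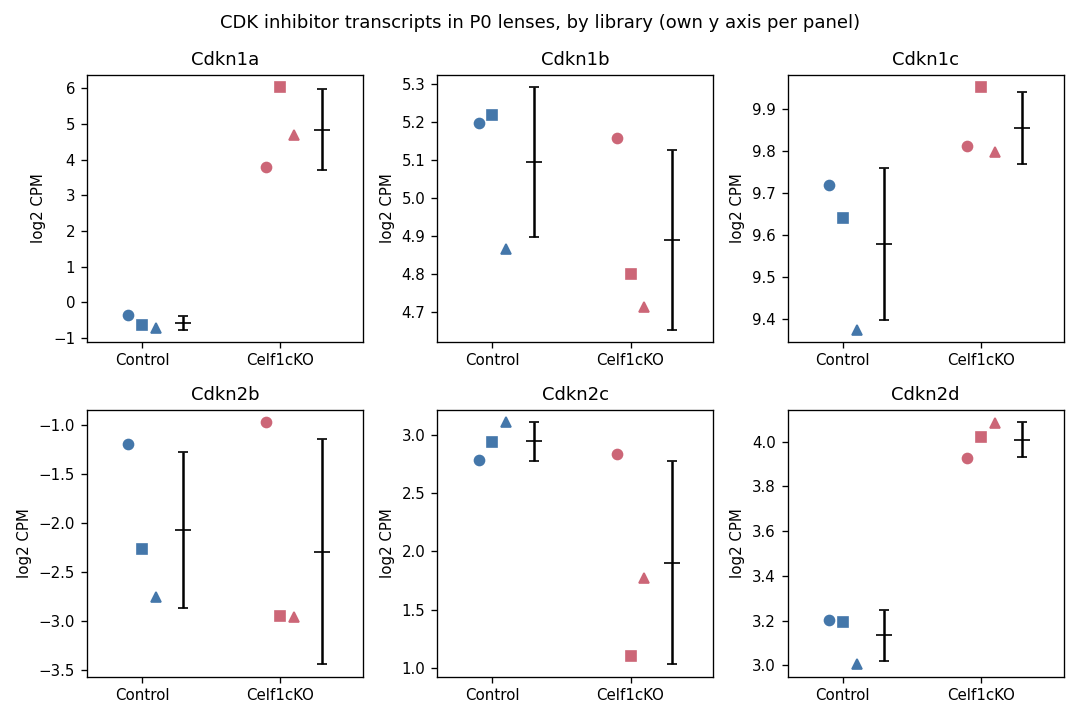
Level of each measured CDK inhibitor gene in log2 CPM (y axis, own scale in each panel) in the 3 control and 3 Celf1cKO libraries (x axis). Circles, squares and triangles are libraries 1, 2 and 3 of each group, and the bar to the right of each group is its mean ± SD. The groups lie apart in Cdkn1a, Cdkn2d and Cdkn1c and overlap in Cdkn1b, Cdkn2b and Cdkn2c, and in Cdkn1b and Cdkn2c Celf1cKO library 1 sits among the controls.

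The promoters of Cdkn1a and Cdkn2d are shown because these were the called members. The sequences are those of RefSeq on GRCm38.p6, from 250 bases before to 50 bases after a transcription start, with GC boxes (GGGCGG on either strand, the letters that Sp1 family factors bind) in capitals. GC boxes were chosen after the values of the genes were seen, and 35.7% of 32851 promoters of this length hold at least 1. The Cdkn1a promoter at chr17:29093519-29093818 (+ strand) has 2 GC boxes, and a second Cdkn1a start farther upstream, not shown, has 0. The Cdkn2d promoter at chr9:21291160-21291459 (- strand) has 5. Members that were not called hold GC boxes too, with 1 in the promoter of Cdkn1b, 1 in that of Cdkn2b, and 4 and 0 at the 2 starts of Cdkn2c. A match is a description of the letters and not a measured binding site.
Cdkn1a: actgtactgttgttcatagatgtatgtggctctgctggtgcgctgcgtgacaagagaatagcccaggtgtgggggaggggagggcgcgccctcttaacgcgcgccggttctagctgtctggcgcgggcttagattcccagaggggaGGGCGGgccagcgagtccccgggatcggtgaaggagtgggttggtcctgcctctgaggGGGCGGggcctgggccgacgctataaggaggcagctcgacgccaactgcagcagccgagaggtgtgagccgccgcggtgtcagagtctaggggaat
Cdkn2d: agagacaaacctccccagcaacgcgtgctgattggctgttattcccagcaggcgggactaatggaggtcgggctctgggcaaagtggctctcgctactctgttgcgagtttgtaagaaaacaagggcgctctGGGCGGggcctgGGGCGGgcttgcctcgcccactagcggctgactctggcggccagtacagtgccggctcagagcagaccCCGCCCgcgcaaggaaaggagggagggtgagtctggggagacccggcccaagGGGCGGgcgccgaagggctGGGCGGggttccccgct

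CELF1 is known to bind GU-rich stretches in mRNA, often in the 3′ UTR, and the DNA letters of such motifs, TGTTTGT and TGTGTGT, were looked for on the transcribed strand of the annotated 3′ UTRs. TGTTTGT was found in 0 of the 7 members, and 24.8% of 20928 3′ UTRs hold it. TGTGTGT was found in the called members and in no other. Cdkn1a has 1 match in a 3′ UTR of 1334 bases, 78 bases after the stop codon, at chr17:29099460-29099488 with its flanks. Cdkn2d has 2 overlapping matches in 563 bases, of which the first, 136 bases after the stop codon, is shown from chr9:21288820-21288848 on the - strand. TGTGTGT occurs in 27.8% of all 3′ UTRs, in 32.4% of those about as long as that of Cdkn1a and in 12.2% of those about as long as that of Cdkn2d. The longest 3′ UTR of the family, 3439 bases in Cdkn1b, has 0 matches, although 62.4% of 3′ UTRs of that length hold 1 or more. The sites are printed with the motif in capitals, and neither binding nor an effect of these letters was measured.
Cdkn1a site: agccctcactcTGTGTGTcttaattatta
Cdkn2d site: gatttcttgagTGTGTGTgtttggggggt

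Cdkn1a (ENSMUSG00000023067) encodes p21, a Cip/Kip inhibitor that p53 and other factors switch on when cells arrest. It lies at chr17:29090976-29100727 on the + strand of GRCm38. Its level was -0.36, -0.65 and -0.72 log2 CPM in the controls, from 28, 22 and 22 reads. It reached 3.80, 6.04 and 4.70 log2 CPM in Celf1cKO lenses, from 596, 3198 and 1275 reads. All Celf1cKO libraries were far above all controls, and they also differed among themselves, with library 2 the highest and library 1 the lowest. The group means were -0.58 ± 0.19 and 4.85 ± 1.13 log2 CPM (SD, n = 3 in each group). The log2 fold-change of 5.42 (SE 0.511, 95% interval 4.23 to 6.62, limma adjusted p = 0.00888) is a 42.9-fold difference, the largest rise among the 10640 genes. With 1 CPM added before taking logarithms it was 4.20, or 18.4-fold, and the third largest rise, as it also was without control library 3 or without Celf1cKO library 2. In controls the gene ranked 12265 of 13931 by level, so the fold rests on a base of few reads, although each control library was well above the 3-read floor. Leaving out control library 2 gave an adjusted p of 0.0512 and leaving out Celf1cKO library 3 one of 0.0607 from limma, with the log2 fold-change between 4.83 and 5.95 over the 6 fits without a library.

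Among the Celf1cKO libraries, but not among the controls, the order in Cdkn1a ran opposite to that in Celf1 and in epithelial markers. In the controls Cdkn1a and Celf1 ran in the same order. Celf1cKO library 2, with the most Cdkn1a, had the least Celf1 and the lowest summed level of 8 lens epithelial markers, 196 CPM, against 521 CPM in library 1 and 395 CPM in library 3. In the controls the sum was 623 to 660 CPM. The part that the level of Celf1 or the makeup of the lenses had in the Cdkn1a result was not tested. In RNA from whole lenses fewer cells of a type cannot be told apart from less RNA per cell.

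The exons of Cdkn1a overlap those of AC167363.2 on the opposite strand. The libraries were strand-specific, but the strand setting used in counting is not given in the sources used here, so reads from the antisense gene could not be told apart. Of the 3547 stretches of 50 bases in the annotated Cdkn1a transcripts, 2.14% also occur in transcripts of other genes. Cdkn1b, Cdkn1c, Cdkn2b, Cdkn2c and Cdkn2d share 0 such stretches with other genes.

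Cdkn1b (ENSMUSG00000003031) encodes p27Kip1, which holds CDK2 with cyclin E and is removed by the SCF ligase with Skp2 when cells enter S phase. It lies at chr6:134920401-134925513 on the + strand. The controls had 5.20, 5.22 and 4.87 log2 CPM, and the Celf1cKO libraries had 5.16, 4.80 and 4.71. The groups overlapped, and Celf1cKO library 1 was close to control libraries 1 and 2. The log2 fold-change was -0.20 (SE 0.155, 95% interval -0.57 to 0.16, limma adjusted p = 0.408), which leaves a log2 fold-change of 0.58 outside the interval in either direction. Under scaling by total reads, in which the median of all expressed genes moved to 0.23, the value was 0.02. It ranged from -0.34 without Celf1cKO library 1 to -0.12 without Celf1cKO library 3. These are mRNA levels, and no protein was measured here.

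Cdkn1c (ENSMUSG00000037664) encodes p57Kip2, an inhibitor with a maternally expressed, imprinted gene, known for its part in fiber cell exit from the cycle. It lies at chr7:143458339-143461050 on the - strand, where its exons overlap Gm44732 on the other strand. It was measured at 9.72, 9.64 and 9.37 log2 CPM in the controls and at 9.81, 9.95 and 9.80 in the Celf1cKO libraries. Each Celf1cKO library was above each control, as in 40.0% of expressed genes. The gap was small, 0.28 on the log2 scale (SE 0.114, 95% interval 0.01 to 0.54, limma adjusted p = 0.153), and the gene was not called. Under scaling by total reads the log2 fold-change was 0.50 with an adjusted p of 0.0151 from limma, still below the fold-change cut-off. Without control library 3 it was 0.17. With 26121 to 48147 reads per library Cdkn1c was the most deeply counted of the family, ranking 81 of 13931 genes in controls.

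**Figure D2:**
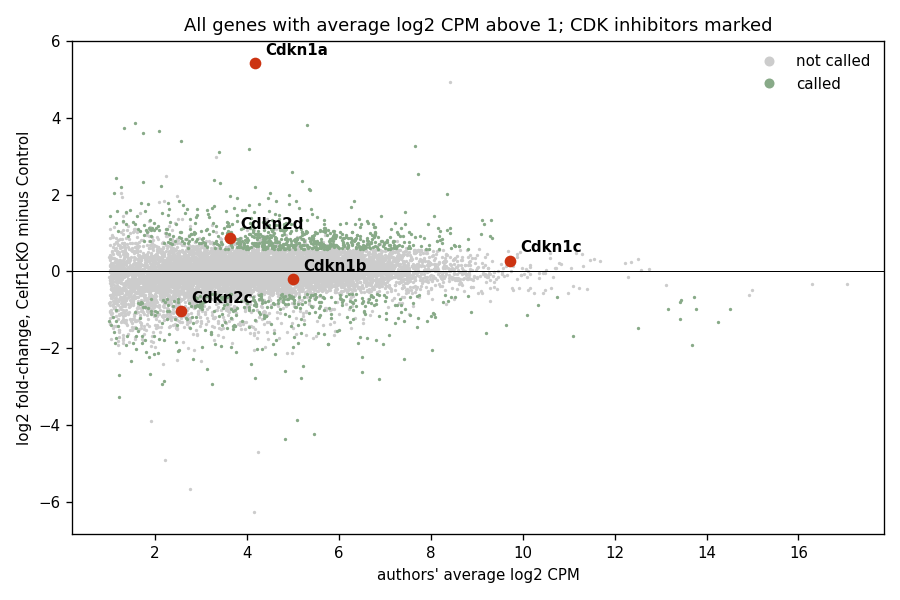
Log2 fold-change of Celf1cKO against control lenses (y axis) against the authors' average log2 CPM (x axis) for the 10640 genes with an average above 1, called genes in green and CDK inhibitor genes in red. Cdkn1a is the highest point at 5.42, Cdkn2d lies at 0.88, and Cdkn1c, Cdkn1b and Cdkn2c lie at 0.28, -0.20 and -1.04.

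Cdkn2d (ENSMUSG00000096472) encodes p19INK4d, an INK4 inhibitor found in many cells that have stopped dividing, such as neurons. It lies at chr9:21288410-21291407 on the - strand. The levels were 3.20, 3.19 and 3.0 log2 CPM in the controls, from 351, 338 and 314 reads, and 3.92, 4.02 and 4.08 log2 CPM in the Celf1cKO libraries, from 650, 786 and 832 reads. The groups lay apart, and unlike Cdkn1a the 3 Celf1cKO libraries were close to each other, with an SD of 0.08 against 1.13. The log2 fold-change was 0.88 (SE 0.125, 95% interval 0.58 to 1.17, limma adjusted p = 0.0114), a 1.83-fold difference. Over the fits without a library it ranged from 0.81 to 0.92, and its adjusted p from limma was 0.0531 without control library 2 and 0.0784 without Celf1cKO library 3.

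Cdkn2c (ENSMUSG00000028551) encodes p18INK4c, which like the other INK4 proteins acts on CDK4 and CDK6. It lies at chr4:109660876-109667189 on the - strand. The controls had 2.78, 2.94 and 3.11 log2 CPM, and the Celf1cKO libraries had 2.83, 1.10 and 1.77. Celf1cKO libraries 2 and 3 were below all controls, but library 1 fell among them. The log2 fold-change was -1.04 (SE 0.405, 95% interval -1.99 to -0.09, limma adjusted p = 0.136), and the gene was not called. Without Celf1cKO library 1 it was -1.50, with an adjusted p of 0.0101 from limma. Among the Celf1cKO libraries, but not among the controls, summed levels of other genes had the same order as Cdkn2c. The 20 replication and mitosis genes summed to 278 to 458 CPM in controls and to 278, 170 and 232 CPM in the Celf1cKO libraries. For 7 endothelial and mesenchymal markers the sum was 81.9 to 98.7 CPM in controls and 92.4, 22.4 and 46.0 CPM in the Celf1cKO libraries. Library 2 was thus the lowest of its group in Cdkn2c and in these sums, as in the sum of epithelial markers given above, and none of the markers in these 3 lists was at 0 reads in any library. The part of these markers in the Cdkn2c values was not tested.

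Cdkn2b (ENSMUSG00000073802), the gene of p15INK4b, which TGF-beta is known to induce, was close to the limit of detection. It lies at chr4:89306299-89311039 on the - strand. Only 15, 6 and 4 reads were counted in the controls and 20, 4 and 4 in the Celf1cKO libraries, or -1.19, -2.26 and -2.75 and -0.96, -2.95 and -2.96 log2 CPM. Library 1 of each group was the highest and the groups overlapped. The log2 fold-change was -0.23 with a 95% interval of -1.86 to 1.41, wide enough to hold a difference as large as that of Cdkn2d in either direction.

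**Figure D3:**
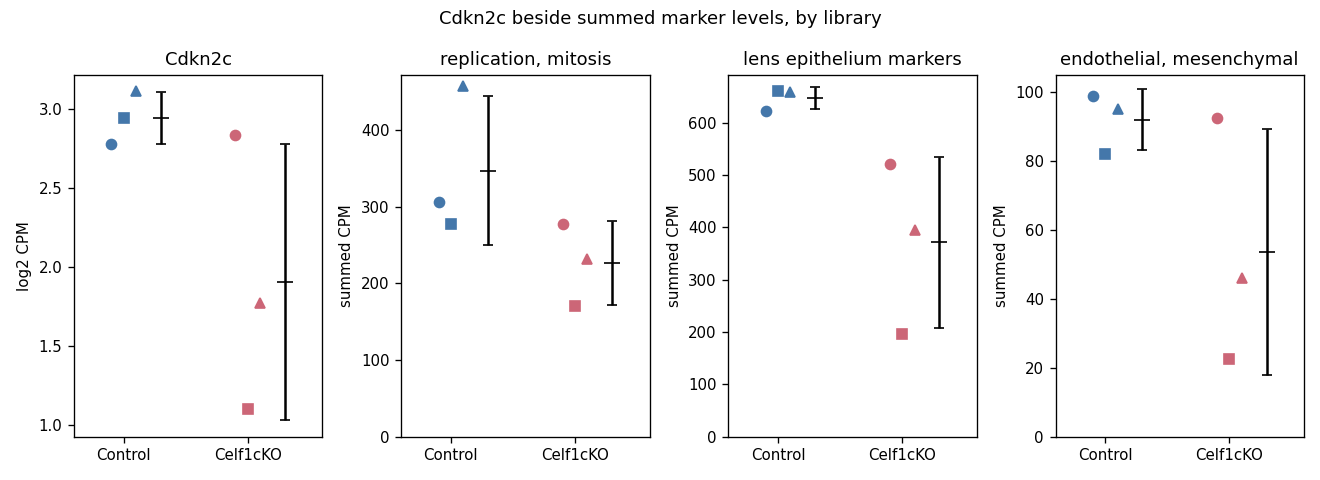
Cdkn2c in log2 CPM and the summed CPM of replication and mitosis genes, lens epithelial markers, and endothelial and mesenchymal markers (y axes, the summed CPM axes starting at 0) in control and Celf1cKO libraries (x axis), with circles, squares and triangles for libraries 1, 2 and 3 and bars for mean ± SD. In all 4 panels Celf1cKO library 2 is the lowest of the 6 libraries and library 1 is the highest of its group.

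To compare levels between genes, CPM were divided by the length of each gene's exons in kilobases. That length joins the exons of all annotated transcripts of a gene, and the levels and shares below depend on this choice. In control lenses Cdkn1c was the leading member at 377 ± 45.8 CPM per kb (SD, n = 3), or 95.8% of the summed level of the 6 genes. It was followed by Cdkn1b at 7.55 ± 0.991, Cdkn2d at 5.56 ± 0.424, Cdkn2c at 2.86 ± 0.330, Cdkn1a at 0.177 ± 0.0257 and Cdkn2b at 0.157 ± 0.110 CPM per kb (SD, n = 3). Each of these was above the next in every control library, except Cdkn1a and Cdkn2b, whose ranges overlapped.

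In Celf1cKO lenses the leading member was again Cdkn1c, at 454 ± 27.4 CPM per kb (SD, n = 3), or 94.2% of the sum. Behind it the order differed, with Cdkn2d at 10.2 ± 0.561, Cdkn1a at 9.91 ± 7.65, Cdkn1b at 6.57 ± 1.12, Cdkn2c at 1.56 ± 0.963 and Cdkn2b at 0.151 ± 0.159 CPM per kb (SD, n = 3). Cdkn1a ranged from 3.91 to 18.5 CPM per kb, so that its place relative to Cdkn2d and Cdkn1b depended on the library, whereas Cdkn1b was above Cdkn2c and Cdkn2c above Cdkn2b in every library. Despite its rise, Cdkn1a made up 0.840%, 3.55% and 1.58% of the summed level in the Celf1cKO libraries, against 0.0408% to 0.0478% in controls. Within the INK4 class, Cdkn2d made up 64.8% ± 3.52 of the sum in controls and 86.0% ± 8.46 in Celf1cKO lenses (SD, n = 3). The summed INK4 level was 8.57 ± 0.206 CPM per kb in controls and 11.9 ± 0.742 in Celf1cKO lenses (SD, n = 3).

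**Figure D4:**
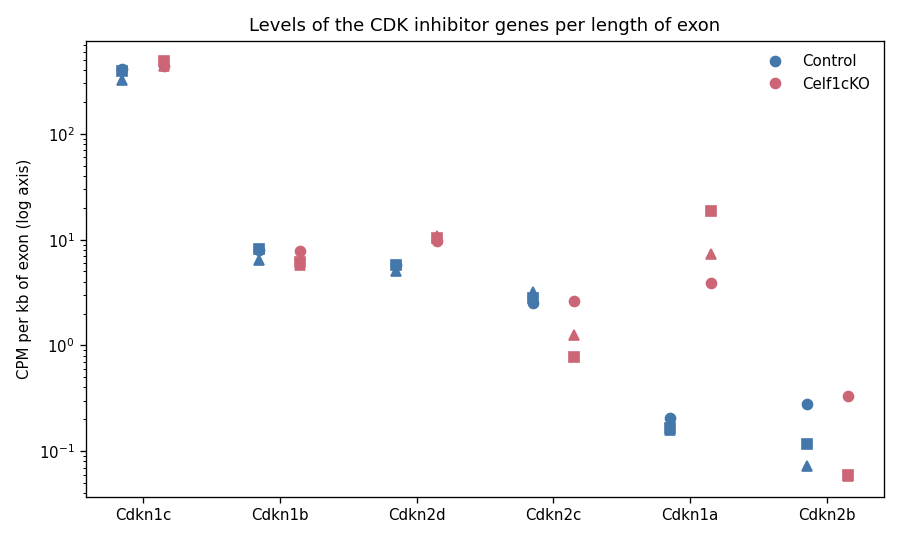
Levels of the 6 measured CDK inhibitor genes in CPM per kb of exon (y axis, log scale), ordered from left by their control mean, with control libraries in blue and Celf1cKO libraries in red and circles, squares and triangles for libraries 1, 2 and 3. Cdkn1c lies far above the rest in every library, and Cdkn1a moves from the level of Cdkn2b in controls to that of Cdkn1b and Cdkn2d in Celf1cKO lenses.

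The ratio of Cdkn1a to another member in the same library does not depend on how libraries were scaled. The log2 ratio of Cdkn1a to Cdkn1c was -10.08, -10.29 and -10.10 in the controls and -6.01, -3.91 and -5.10 in the Celf1cKO libraries. Differences between the group means were 5.63 against Cdkn1b, 5.15 against Cdkn1c, 6.46 against Cdkn2c and 4.55 against Cdkn2d, on the log2 scale. In all 4 ratios the groups lay apart. Each gave p = 0.1 in the exact permutation test, two-sided, the smallest p that 3 libraries against 3 allow. The value was the same after Benjamini-Hochberg adjustment over the 4 ratios. All 4 share the Cdkn1a values, whose gap between the groups was wider than the range of any of these partners over the 6 libraries. That gap fixed the outcome, so the 4 tests add no support beyond the Cdkn1a values themselves.

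The genes most like each called member were named by Pearson's r over the 6 libraries, as a description. For Cdkn1a these were Zwint, Lrrc28, Mtx2, Sort1 and Tpd52, with r of 0.998 to 0.999. For Cdkn2d these were Jarid2, Chtop, Nsg2, Cd81 and Arhgdig, with r of 0.996 to 0.998. The likeness is not particular to these genes, since 854 of 10639 genes had an r above 0.95 with Cdkn1a and 626 with Cdkn2d, and the 6 points share their group difference.

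The genes on which the CDK inhibitors act, or which act on them, were followed through 7 lists. These were chosen with earlier results of these data known, and no set test was made. Of the 119 different genes in them with an average log2 CPM above 1, 14 (11.8%) were called, beside 9.68% of all such genes, and 18 (15.1%) were when the fit held the replicate number as a block, beside 12.0%. The count was 25 without Celf1cKO library 1, 8 without Celf1cKO library 2, 7 without control library 3, and 0 without control library 2 or without Celf1cKO library 3. Among 12 cyclins and CDKs with an average log2 CPM above 1, 2 were elevated and 0 reduced, with a list median log2 fold-change of -0.15 that turned to 0.08 under scaling by total reads. Cdk6, the kinase that INK4 proteins bind beside CDK4, stood at 3.28, 3.29 and 3.01 log2 CPM in the controls and at 4.05, 4.92 and 4.75 in the Celf1cKO libraries. It rose by 1.38 on the log2 scale (SE 0.231, limma adjusted p = 0.0159), and the groups lay apart. Cdk6 was not called without control library 3 (adjusted p from limma 0.0563). Its partner cyclin D2, Ccnd2, rose from 7.51, 7.40 and 7.79 to 8.06, 8.32 and 8.39 log2 CPM, a log2 fold-change of 0.69 (limma adjusted p = 0.0213). Ccnd2 was not called without the variance trend (adjusted p from limma 0.0656). It was also lost without control library 1 (0.0692) or without Celf1cKO library 2 (0.0652). Ccnd1, Cdk2 and Cdk4 were not called, with log2 fold-changes of 0.13, -0.24 and -0.23.

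Downstream of the kinases, 0 of 17 pocket protein, E2F, DP and MuvB genes were called, beside 9.68% of all expressed genes. The list median was -0.10, or 0.13 under scaling by total reads, which called 2 of the 17. Rb1, whose product is the main substrate of CDK4 and CDK6 in the cell cycle, had 4.69, 4.89 and 4.48 log2 CPM in controls and 5.11, 5.39 and 5.15 in Celf1cKO lenses. Its log2 fold-change of 0.53 had an adjusted p of 0.0464 from limma but was below the fold-change cut-off. Among 20 replication and mitosis genes 0 were called, beside the same 9.68% of all expressed genes. All 20 had a negative log2 fold-change, with a median of -0.63, whereas quantile normalization left 19 and scaling by total reads 17 of the 20 negative. Without control library 3 the median was -0.34 with 18 genes negative, and without Celf1cKO library 2 it was -0.38 with 19 negative. Mki67, a marker of cycling cells, had a value of -0.78 (limma adjusted p = 0.179), and Pcna, the sliding clamp that p21 binds, one of -0.07 (limma adjusted p = 0.835). The fit with the replicate block, which called 12.0% of all expressed genes, called 2 of the 20 genes as reduced, Top2a and Rrm1. Both were not in the naming rule. Dividing lens cells are found in the epithelium, and all 8 epithelial markers had negative values too, under each scaling tried, with a median of -1.10. Of those 8, only Foxe3 was called in the fit without the block, and without Celf1cKO library 1 the numbers called were 4 replication and mitosis genes and 5 epithelial markers. The part of the epithelium in the values of the replication and mitosis genes was not tested. Fewer epithelial cells cannot be told apart here from less RNA per cell.

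**Figure D5:**
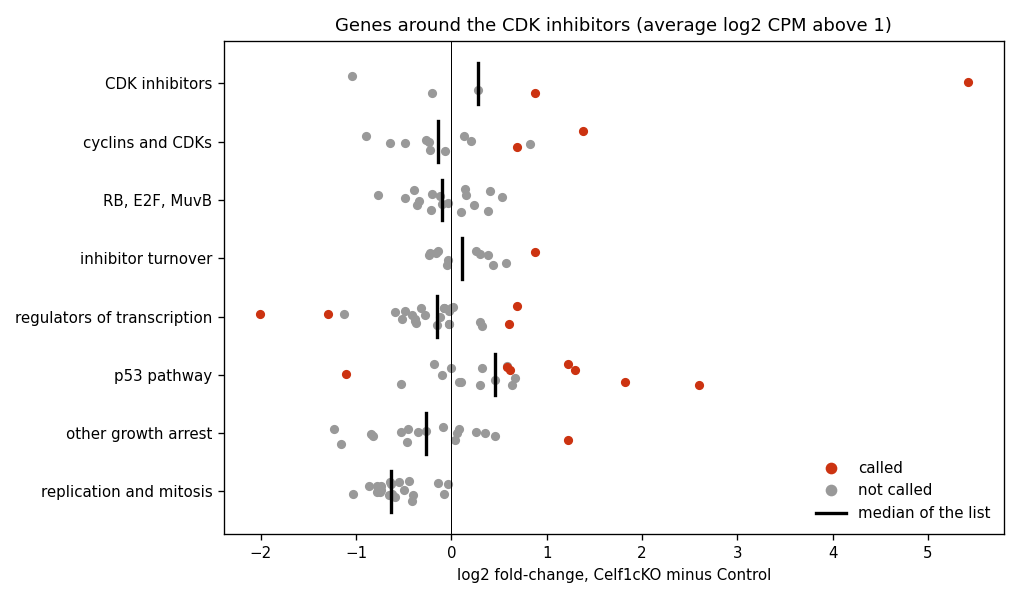
Log2 fold-change of Celf1cKO against control lenses (x axis) for each gene with an average log2 CPM above 1 in the CDK inhibitor family and in 7 lists around it (y axis, points spread vertically for sight). Red points were called, grey points were not, and black bars are list medians. Cdkn1a stands alone on the right at 5.42, 7 p53 pathway genes are red, and all 20 replication and mitosis genes lie left of 0.

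Of 12 genes for ubiquitin ligase parts that degrade CDK inhibitors, 1 was called, beside 9.68% of all expressed genes. It was Rbx1, the RING subunit of cullin ligases, at 5.47, 5.40 and 5.39 log2 CPM in controls and 6.17, 6.38 and 6.34 in Celf1cKO lenses, a log2 fold-change of 0.87 (SE 0.0894, limma adjusted p = 0.00888). Skp2, which selects p27Kip1 for degradation, had a log2 fold-change of -0.24 (limma adjusted p = 0.560). The median of the list was 0.11, with 6 of the 12 genes positive. Scaling by total reads called 4, with 11 positive and a median of 0.34, and quantile normalization called 2.

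Among 25 regulators of transcription known to act on CDK inhibitor genes, 2 were elevated and 2 reduced, beside 6.24% and 3.44% of all expressed genes. In this list 20 of the 25 had a negative log2 fold-change, with a median of -0.15. Under scaling by total reads 12 were negative and the median was 0.07. Smad2, a mediator of TGF-beta signals, rose by 0.61 (limma adjusted p = 0.0162) and Klf6, a zinc finger factor known to activate Cdkn1a, by 0.69 (limma adjusted p = 0.0496) on the log2 scale. Neither was called under quantile normalization or without the variance trend, and Klf6 was also lost under median centring (adjusted p from limma 0.0555) and under scaling without crystallin genes (0.0535). Both were lost without control library 3 (adjusted p from limma 0.052 for Smad2 and 0.130 for Klf6). Without Celf1cKO library 2 they were lost too (0.0552 and 0.114), and Klf6 was lost without Celf1cKO library 1 (0.072). Ezh2, the Polycomb methyltransferase known to silence the Cdkn2a locus, had 3.94, 4.46 and 4.71 log2 CPM in controls and 3.08, 3.06 and 3.08 in Celf1cKO lenses, and fell by 1.29 on the log2 scale (limma adjusted p = 0.0134). Foxe3, a transcription factor of lens epithelium that maintains its proliferation, fell by 2.01 (limma adjusted p = 0.0434, or 0.0894 without the variance trend), from 4.88, 5.06 and 4.91 to 3.41, 1.63 and 3.77 log2 CPM. Foxe3 was also lost without control library 1 (adjusted p from limma 0.106) or without control library 3 (0.114). The fits without control library 2 or without Celf1cKO library 3 called 0 of the 25.

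The list with the most calls was that of p53, its regulators and its targets beside Cdkn1a. Of its 19 genes, 6 were elevated and 1 reduced, beside 6.24% elevated and 3.44% reduced among all expressed genes. Because the list was chosen with earlier results of these data known, this is a count and not a test. The median log2 fold-change of the list was 0.46, against 0.00 over all expressed genes, and 0.17 without Celf1cKO library 2. With the replicate number as a block 7 were elevated, the added gene being Bbc3, which was not in the naming rule. The calls in either direction fell from 7 to 4 without Celf1cKO library 2, to 3 without control library 3 and to 0 without control library 2 or without Celf1cKO library 3. Trp53inp1, a stress-induced p53 target, rose from 3.86, 2.94 and 2.59 to 5.58, 6.08 and 5.51 log2 CPM, by 2.59 (limma adjusted p = 0.00940). Phlda3, a p53 target that restrains Akt, rose from 1.41, 1.47 and 0.93 to 2.60, 3.65 and 3.02 log2 CPM, by 1.82 (limma adjusted p = 0.0153). Phlda3 was not called without control library 3 (adjusted p from limma 0.0520). Mdm2, the ligase that degrades p53 and is itself a p53 target, rose by 0.58 (limma adjusted p = 0.0133), just above the cut-off, and was below it with values of 0.50 to 0.57 under quantile normalization, median centring, scaling without crystallin genes and log2(CPM + 1). Sesn1, another p53 target, went the other way and fell by 1.10 (limma adjusted p = 0.0297, or 0.0724 without the variance trend). Sesn1 was also lost without control library 3 (adjusted p from limma 0.090) or without Celf1cKO library 2 (0.0667). The mRNA of p53 itself, Trp53, was not called, at -0.18 (limma adjusted p = 0.480). Of 17 other growth arrest genes, 1 was called as elevated, beside 6.24% of all expressed genes. It was Ccng1, a cyclin G gene that is also in the p53 list, with a log2 fold-change of 1.22 (limma adjusted p = 0.0141). With the replicate number as a block, 1 gene of this list was also called as reduced, Gadd45g, which was not in the naming rule.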

How the data were processed

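Total RNA of P0 lenses was sequenced by the authors as strand-specific, paired-end libraries and aligned to GRCm38.p6. The submitters' processing notes name STAR 2.7.8a and featureCounts 2.0.0, and the study's methods add that only uniquely mapped reads were counted, that genes of very low CPM were removed and that edgeR was used for the authors' own comparison. The values the authors deposited are log2 CPM for each of the 6 libraries, with library scaling factors and a small prior count that were read from the values. Worked back, 100% of them gave whole reads within 0.01 read. The authors' fold-changes, F statistics, p-values, FDR and group means in the same table were not used, and of their pooled columns only the average log2 CPM was, as the expression cut-off.

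Libraries were grouped by their labels. limma 3.58.1 in R 4.3.3 was fitted to these values with a variance trend, in a procedure first tested on simulated data, and the Benjamini-Hochberg method was applied to all 13931 genes. Of genes changed 4-fold in the simulation, 100% were recovered at a dispersion (spread between libraries) of 0.01 or 0.05 and 42% at 0.2. Ratios were compared with exact permutation tests. The members and lists were chosen with earlier results of these data known. Besides the members and Celf1, the naming rule covered the most elevated and most reduced called genes of each list and 11 core cell cycle genes. Deviations from the group means correlated across genes between libraries of equal replicate number (0.30, 0.42 and 0.35), the numbers come from the labels, and a fit with the number as a block was made. It was an alternative, as were no variance trend, robust empirical Bayes, log2(CPM + 1), other scalings, limma's voom on recovered reads, adjustment over expressed genes, and leaving out each library. Exon lengths and 3′ UTRs came from GENCODE M21, in which 13928 gene identifiers matched. The exon length of a gene was the union of the exons of all its annotated transcripts, 3553 bases over 5 transcripts for Cdkn1a. The 3′ UTR was that of the CCDS transcript with the longest 3′ UTR, or the longest where a gene had no CCDS transcript. Promoters came from RefSeq. Plots were made in Python 3.11.15 and matplotlib 3.10.9. Counting error was not computed separately, because the spread between libraries was the error throughout.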

Additional observations from a re-analysis of the deposited data

How the results depend on the processing

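With the replicate number as a block, Cdkn1a (adjusted p = 0.0136 from limma) and Cdkn2d (0.0196) stayed called and no call among the members changed, while the table had 1279 calls against 1030. Without the variance trend 421 genes of the table and 8 of the pathway lists were called, and the adjusted p of Celf1, at -1.60, was 0.0693. Scaling by total reads gave 1867 genes, 89.1% of them elevated against 64.5%, 22 list genes, and 0.0215 for Cdkn1b. Quantile normalization gave 0.0718 for Cdkn2b. Over the fits that left out 1 library each, the genes called ranged from 1 to 1916, the list genes from 0 to 25 and the members from 0 to 3. The log2 fold-change ranged from 4.83 to 5.95 for Cdkn1a, 0.81 to 0.92 for Cdkn2d, -1.50 to -0.64 for Cdkn2c, -0.89 to 0.21 for Cdkn2b, -0.34 to -0.12 for Cdkn1b, 0.17 to 0.35 for Cdkn1c and -1.99 to -1.36 for Celf1, and Cdkn2b changed sign in 3 of these fits. In the 10 other settings each, Cdkn1a (adjusted p from limma 0.00408 to 0.0432) and Cdkn2d (0.00413 to 0.0432) remained called. The causes of these changes were not tested, and each fit without a library also held fewer libraries. Depth limited Cdkn2b, with 4 to 20 reads per library, and the size of the Cdkn1a fold, with 22 to 28 reads per control library, which was 4.20 on the log2(CPM + 1) scale.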
